A study of Mus musculus with 13 samples.

Results

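Blood vessels of the retina carry a set of membrane transporters that feed the neural tissue and keep drugs and metabolites out, and 7 of their genes are described here across endothelial tip samples, stalk samples and nonvascular retina: Mfsd2a, Flvcr2, Slc2a1, Abcb1a, Abcg2, Slco1c1 and Slco1a4. They were taken by gene symbol, with all their non-control probes, which gave 8 probes (1 per gene, 2 for Abcg2). All 7 genes passed the filter on dim probes and were among the 31897 genes tested, of which 16596 have a symbol. The genes were chosen by function with the tip and stalk log2 ratios of these same arrays in view, so the difference between tip and stalk is given for them as a description without a test. The comparisons with nonvascular retina were tested. They use the same tip and stalk arrays, so their p-values and counts are not free of that choice.

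The 13 arrays hold 6 tip samples, 4 stalk samples and 3 samples of nonvascular retina, which the labels name as the control, all of mouse total RNA. Each array compares a sample in Cy5 (red) with Universal Mouse Reference RNA, a commercial RNA mixture, in Cy3 (green), so every value is a log2 ratio of sample over reference and cannot be set against the ratio of another probe. A sprouting vessel is led by tip cells, with stalk cells behind them, and by its title the study used the arrays to find genes of retinal tip cells. The labels give no strain, age, genotype or way of collecting the cells, and they do not tie samples to animals, so p-values measure only the spread between these samples, which may be technical.

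Array brightness (median background-corrected red signal) was 105 to 292 on tip arrays, 98.1 to 141 on stalk arrays and 166 to 282 on nonvascular arrays. In scan order the 4 stalk arrays came first, then tip, then nonvascular retina, and tip replicate 5 was scanned last, on another day, so group and scan order cannot be told apart. The mean log2 ratio of 17 pan-endothelial markers was 2.40 to 2.68 on tip arrays and 2.64 to 2.82 on stalk arrays, against 0.098 to 0.37 on nonvascular arrays. The mean of 12 pericyte markers was 0.62 to 0.90 on tip arrays, below the 1.30 to 1.51 on stalk arrays, and −0.99 to −0.86 on nonvascular arrays. In such bulk samples, fewer cells of a type and less RNA per cell cannot be told apart.

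The barrier of brain and retinal vessels rests on tight junctions, on low vesicle traffic through the endothelial cell and on transporters. Solute carriers on both faces of the cell pass glucose, amino acids, lipids, choline and hormones, and ATP-driven pumps on the blood side return drugs and metabolites to the blood. In the developing retina, Norrin and Wnt signalling through beta-catenin and TCF/LEF factors is known to induce barrier properties as vessels mature. Mfsd2a carries lysophosphatidylcholine with docosahexaenoic acid and is known to hold vesicle traffic low. Flvcr2 carries choline across brain vessels, and Slc2a1 is the glucose transporter GLUT1, also made by other cell types. Abcb1a (P-glycoprotein) and Abcg2 are efflux pumps, Slco1c1 carries thyroxine, and Slco1a4 carries organic anions.

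The promoters of 4 members are shown because their windows share the core letters of a hypoxia response element, ACGTG. The sequences are RefSeq's (GRCm38.p6), from 250 bases before to 50 bases after the gene's start, written 5′ to 3′ on the gene's strand. Mfsd2a lies at chr4:122961139-122961438 (minus strand), Flvcr2 at chr12:85746289-85746588 (plus), Slc2a1 at chr4:119108495-119108794 (plus) and Slco1c1 at chr6:141524104-141524403 (plus). Capitals mark ACGTG on the strand shown, CACGTG where the letters read the same on both strands, and, in Slco1c1, the TCF/LEF letters CTTTGTT on either strand.
Mfsd2a: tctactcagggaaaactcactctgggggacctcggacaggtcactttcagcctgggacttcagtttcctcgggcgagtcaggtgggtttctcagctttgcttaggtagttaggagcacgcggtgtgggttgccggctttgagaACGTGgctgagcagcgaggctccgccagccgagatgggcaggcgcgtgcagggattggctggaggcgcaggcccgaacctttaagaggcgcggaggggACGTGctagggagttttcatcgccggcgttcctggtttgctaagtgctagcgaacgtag
Flvcr2: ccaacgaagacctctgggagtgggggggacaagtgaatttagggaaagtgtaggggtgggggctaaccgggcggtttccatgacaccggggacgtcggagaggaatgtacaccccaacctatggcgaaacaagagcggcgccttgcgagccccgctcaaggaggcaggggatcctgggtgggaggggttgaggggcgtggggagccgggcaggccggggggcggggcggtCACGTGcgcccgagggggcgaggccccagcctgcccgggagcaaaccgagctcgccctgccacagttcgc
Slc2a1: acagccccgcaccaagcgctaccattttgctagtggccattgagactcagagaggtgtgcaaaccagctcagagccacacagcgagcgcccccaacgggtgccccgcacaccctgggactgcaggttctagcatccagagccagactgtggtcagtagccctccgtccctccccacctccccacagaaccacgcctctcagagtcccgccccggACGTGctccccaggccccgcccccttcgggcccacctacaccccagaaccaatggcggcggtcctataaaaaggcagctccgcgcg
Slco1c1: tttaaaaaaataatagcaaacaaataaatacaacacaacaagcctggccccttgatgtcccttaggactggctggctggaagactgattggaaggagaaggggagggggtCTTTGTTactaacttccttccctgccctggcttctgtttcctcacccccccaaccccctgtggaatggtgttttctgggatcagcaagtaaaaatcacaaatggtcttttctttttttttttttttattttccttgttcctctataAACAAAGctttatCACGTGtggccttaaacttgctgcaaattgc

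A promoter window was found for all 7 members, with 3 windows for Abcg2. ACGTG, sought on both strands, was in the windows of 4 of the 7 genes, and in 19.6% of the 32851 windows of the same length in the table. CACGTG, which holds ACGTG, is also the E-box of other factors. The TCF/LEF letters, CTTTG and then A or T with A or T after it, on both strands, were in the windows of Slco1c1 and Abcb1a, and in 16.9% of all windows. Both motifs were picked with the array values known, and a match describes the letters only.

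Mfsd2a had the widest gap between tip and stalk among the members in these values, though with the scanner software's own log ratios its difference (−3.04) was close to that of Flvcr2 (−3.08). Its log2 ratio was lowest at 0.36, with a median of 0.57 and a highest value of 0.90 on tip arrays, against 3.34, 3.81, 3.85 and 3.35 on stalk arrays. Nonvascular arrays had −0.40, −0.72 and −0.10. All tip arrays lay below all stalk arrays and above all nonvascular arrays. The means were 0.62 ± 0.22 in tip (SD, n = 6), 3.59 ± 0.28 in stalk (n = 4) and −0.41 ± 0.31 in nonvascular retina (n = 3). Tip was 7.83-fold lower than stalk (log2 difference −2.97 ± 0.15, SE). The 12 pericyte markers had a median difference of −0.75 between the same groups, with 8 of them called lower in tip, and their part in the differences of Mfsd2a, Flvcr2, Slc2a1, Abcg2 and Slco1c1 between tip and stalk was not tested.

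Against nonvascular retina, Mfsd2a was higher in tip by 1.03 ± 0.17 on the log2 scale (SE, limma adjusted p = 0.000393), a 2.04-fold difference. In stalk it was higher by 4.00 ± 0.18 (adjusted p = 1.03e-08), which is 16.0-fold. The 3 comparisons share arrays, so their values are not independent of each other. Mfsd2a kept both calls under all 25 alternatives, with differences of 0.87 to 1.44 for tip and 3.84 to 4.83 for stalk.

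Flvcr2 followed the same order between tip and stalk. It had 0.013 at the lowest, 0.40 at the median and 0.82 at the highest on tip arrays, against 2.45, 2.53, 2.75 and 2.91 on stalk arrays. Nonvascular arrays gave −0.069, 0.083 and 0.015. Tip and stalk arrays did not overlap, while the lowest tip arrays lay within the nonvascular range or close to it. Group means were 0.39 ± 0.31 in tip, 2.66 ± 0.21 in stalk and 0.0094 ± 0.076 in nonvascular retina (SD, n = 6, 4 and 3). Tip was 4.81-fold lower than stalk (log2 difference −2.27 ± 0.15, SE).

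The level of Flvcr2 in tip was not separated from nonvascular retina by the test (log2 difference 0.39 ± 0.16, limma adjusted p = 0.103), whereas stalk was 6.28-fold higher than nonvascular retina (2.65 ± 0.18, adjusted p = 1.97e-07). The tip difference passed the threshold without tip replicate 5 (0.46, adjusted p = 0.0404), after median centring (0.69, adjusted p = 0.0429) and in the red channel on its own (0.73, adjusted p = 0.0296), and the adjusted p ran from 0.0296 to 0.254 over the 25 alternatives. Its red signal over background was 62.5 to 512 on tip arrays and 80.2 to 126 on nonvascular arrays, near the offset of 50 that was added to every signal and draws dim ratios toward 0. With the scanner software's own log ratios, which have no such offset, tip minus stalk for Flvcr2 was −3.08.

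Slc2a1 was bright in all groups and set both vascular groups far above nonvascular retina. Tip arrays lay between 0.36 and 0.52 with a median of 0.49, against 0.99, 1.05, 0.92 and 1.12 on stalk arrays. The nonvascular arrays gave −2.63, −3.43 and −0.91. Every tip array was below every stalk array, and every nonvascular array was below both. The SD was 0.063 among tip arrays and 0.085 among stalk arrays, and 1.29 among nonvascular arrays.

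The Slc2a1 means were 0.47 in tip, 1.02 in stalk and −2.32 in nonvascular retina. Tip was 1.46-fold lower than stalk (log2 difference −0.55), with a standard error of 0.34 that takes in the spread of the nonvascular arrays, since the 3 groups share one estimate. Tip was higher than nonvascular retina by 2.79 ± 0.37 on the log2 scale (SE, limma adjusted p = 7.16e-05, 6.94-fold), and stalk by 3.34 ± 0.40 (adjusted p = 2.88e-05, 10.2-fold). Both calls were kept under all 25 alternatives. Over the fits that left out 1 array each, the difference was 2.24 to 3.50 for tip and 2.79 to 4.05 for stalk. Nonvascular replicate 3 had the highest Slc2a1 of its group. It also had the highest mean of 8 astrocyte markers (1.18, against 0.020 and 0.076 on the other nonvascular arrays). The same held for 8 Mueller glia markers (1.96, against 1.28 and 1.06), a list that shares Slc1a3 with the astrocyte list. On this array the mean of the 17 pan-endothelial markers was highest as well (0.37, against 0.098 and 0.19). The parts of glial and of vessel RNA in Slc2a1 were not tested.

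**Figure D1:**
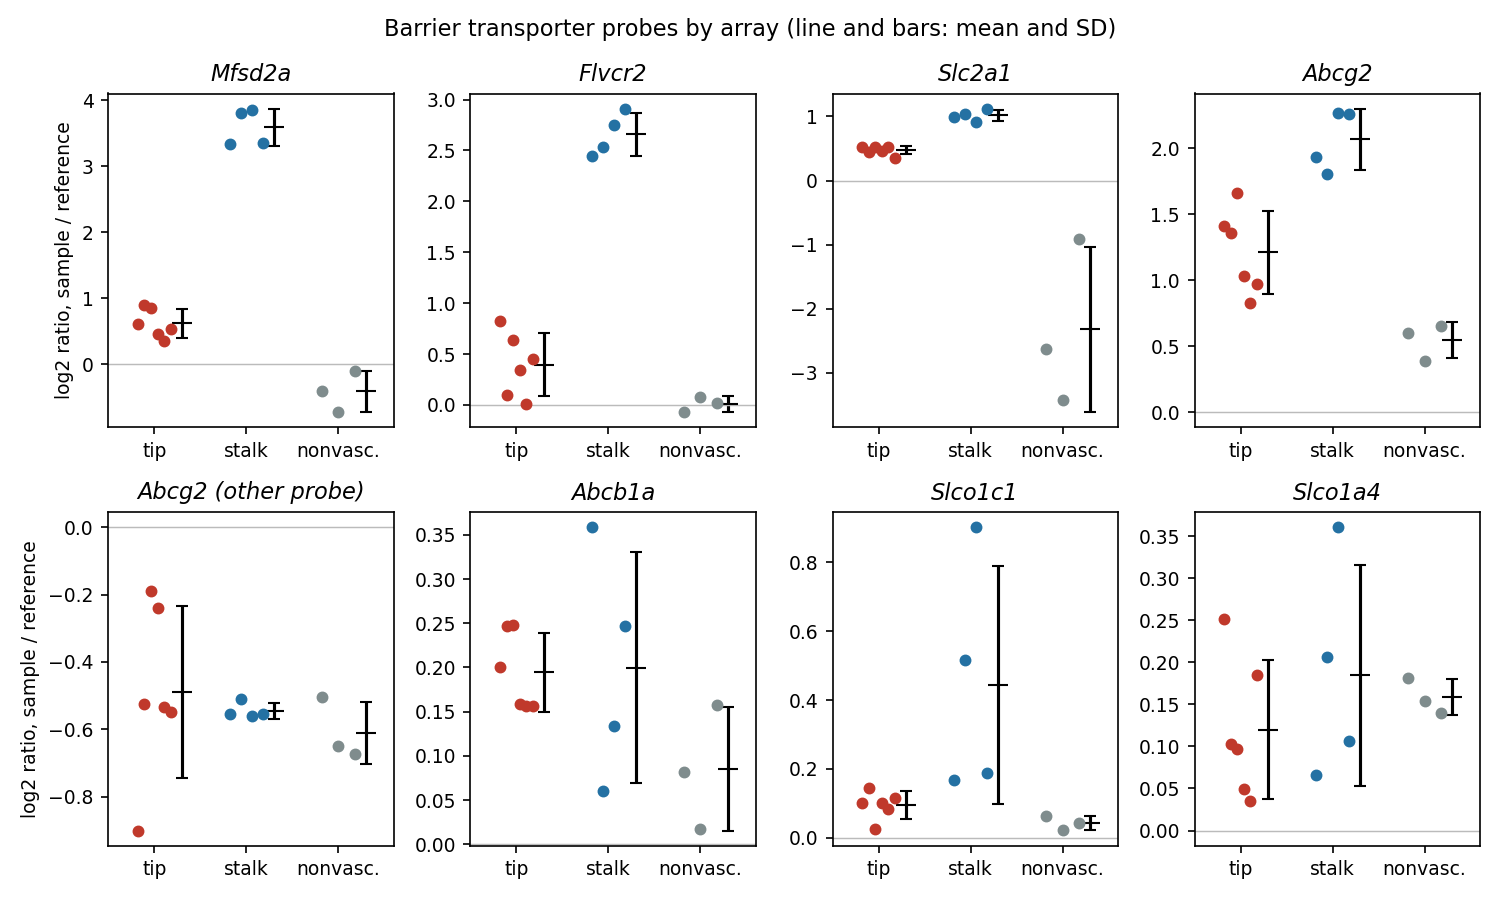
Log2 ratio of sample over reference (vertical axis, its own scale in each panel) for the 8 probes of the 7 genes. Each point is an array, grouped as tip (n = 6), stalk (n = 4) and nonvascular retina (n = 3), and the line with bars is the mean and SD. Tip and stalk points do not overlap for Mfsd2a, Flvcr2, Slc2a1, the brighter Abcg2 probe and Slco1c1, and they overlap for the other 3 probes.

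Of the efflux pumps, Abcg2 was lower in tip than in stalk by its brighter probe, A_51_P184886. It ran from 0.83 to 1.66 on tip arrays with a median of 1.20, against 1.93, 1.81, 2.27 and 2.26 on stalk arrays. Nonvascular arrays had 0.60, 0.39 and 0.65. The groups lay in the order stalk, tip, nonvascular retina without overlap. Their means were 1.21 ± 0.31 in tip, 2.07 ± 0.23 in stalk and 0.55 ± 0.14 in nonvascular retina (SD, n = 6, 4 and 3), and tip was 1.81-fold lower than stalk (log2 difference −0.86 ± 0.16, SE).

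Abcg2 was higher than in nonvascular retina by 0.66 ± 0.17 in tip (SE, limma adjusted p = 0.0102) and by 1.52 ± 0.18 in stalk (adjusted p = 3.33e-05) on the log2 scale. The tip call was lost with median centring (adjusted p = 0.169) and without nonvascular replicate 2 (adjusted p = 0.0583), the range over 25 alternatives being 0.00332 to 0.169. The dimmer Abcg2 probe, A_52_P336142, did not show these differences. It ran from −0.90 to −0.19 on tip arrays with a median of −0.53, against −0.55, −0.51, −0.56 and −0.56 on stalk arrays and −0.50, −0.65 and −0.67 on nonvascular arrays. All 3 groups overlapped, and its log2 differences were 0.056 for tip minus stalk, 0.12 for tip minus nonvascular retina (adjusted p = 0.54) and 0.064 for stalk minus nonvascular retina (adjusted p = 0.779). The statements on Abcg2 therefore rest on 1 of its 2 probes, and with the mean of both, tip minus stalk was −0.40.

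Abcb1a gave a dim signal on every array. Its red signal over background was 25.8 to 84.7 on tip arrays, 32.6 to 45.8 on stalk arrays and 33.1 to 43.2 on nonvascular arrays, under or close to the offset of 50. The reference channel cleared the background flag on 2 of 6 tip arrays, 1 of 4 stalk arrays and 1 of 3 nonvascular arrays. The log2 ratio was 0.16 to 0.25 on tip arrays with a median of 0.18, against 0.36, 0.060, 0.13 and 0.25 on stalk arrays and 0.081, 0.018 and 0.16 on nonvascular arrays. The 3 groups overlapped.

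The log2 difference of Abcb1a was −0.0054 ± 0.058 for tip minus stalk (SE). It was 0.11 ± 0.063 for tip minus nonvascular retina (limma adjusted p = 0.244) and 0.11 ± 0.068 for stalk minus nonvascular retina (adjusted p = 0.251), so no difference was detectable at this signal. With median centring the stalk difference was 0.50 (adjusted p = 0.00929, range over 25 alternatives 0.00929 to 0.537). Sequences of the Abcb1 pair are much alike, and whether this probe also binds Abcb1b RNA was not tested.

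The organic anion carriers had small ratios in all groups. Slco1c1 ran from 0.024 to 0.14 on tip arrays with a median of 0.10, against 0.17, 0.52, 0.90 and 0.19 on stalk arrays and 0.063, 0.021 and 0.042 on nonvascular arrays. Every tip array was below every stalk array, but stalk replicates 1 and 4 lay close to the highest tip array, and stalk replicates 2 and 3 far above it. The means were 0.094 ± 0.040 in tip, 0.44 ± 0.35 in stalk and 0.042 ± 0.021 in nonvascular retina (SD, n = 6, 4 and 3). Tip was 1.27-fold lower than stalk (log2 difference −0.35 ± 0.12, SE), and −0.20 without stalk replicate 3, −0.68 with the scanner software's log ratios and −0.14 relative to the pan-endothelial markers.

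Slco1c1 in tip was within 0.053 ± 0.13 of nonvascular retina on the log2 scale (SE, limma adjusted p = 0.817). In stalk it was higher than in nonvascular retina by 0.40 ± 0.14 (adjusted p = 0.0413), a call that was lost in 14 of 25 alternatives (adjusted p 0.0139 to 0.19). Without stalk replicate 3 the stalk difference was 0.25 (adjusted p = 0.0405).

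Slco1a4 did not separate the groups. Tip arrays lay between 0.035 and 0.25 with a median of 0.10, against 0.066, 0.21, 0.36 and 0.11 on stalk arrays and 0.18, 0.15 and 0.14 on nonvascular arrays. All groups overlapped, and the log2 differences were −0.065 ± 0.062 for tip minus stalk, −0.038 ± 0.068 for tip minus nonvascular retina (limma adjusted p = 0.747) and 0.026 ± 0.074 for stalk minus nonvascular retina (adjusted p = 0.84, SE). Its red signal over background was 66.2 to 162 on tip arrays, 42.0 to 85.1 on stalk arrays and 55.6 to 113 on nonvascular arrays. Slco1a4 belongs to a cluster of closely related Slco1a genes, so binding of relatives cannot be set apart here.

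Counted over the genes, tip arrays lay below all stalk arrays for 5 of the 7 members, and for 2.74% of all genes. Nothing is read from this count, because the members were chosen with that comparison known. The counts against nonvascular retina share those tip and stalk arrays, so they are not free of that choice either. Against nonvascular retina, tip was called higher for 3 of 7 members (Mfsd2a, Slc2a1 and Abcg2) and lower for 0, beside 11.2% of all genes called higher and 16.8% called lower. Of all calls for tip against nonvascular retina, 39.9% were higher in tip, and 28.1% with median centring. At limma's unadjusted p under 0.05, 4 of 7 were higher in tip, with Flvcr2 added, and 0 lower, beside 15.5% of all genes higher and 21.2% lower. Stalk was called higher than nonvascular retina for 5 of 7 members (those 3 with Flvcr2 and Slco1c1), and lower for 0, beside 11.3% of all genes called higher and 18.6% called lower. At the unadjusted threshold these counts were again 5 and 0 in stalk, beside 15.7% and 22.6% of all genes. The median difference of the 7 members was −0.55 for tip against stalk, 0.39 for tip against nonvascular retina and 1.52 for stalk against it, and the median of all genes was 0.0028, −0.011 and −0.0032 in the same comparisons. Of 17 pan-endothelial markers, 15 were called higher than nonvascular retina in tip (median 2.76) and 14 in stalk (2.51). Of 12 pericyte markers, 11 were called higher in tip (median 1.37) and 12 in stalk (2.34), and 0 of either list lower.

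**Figure D2:**
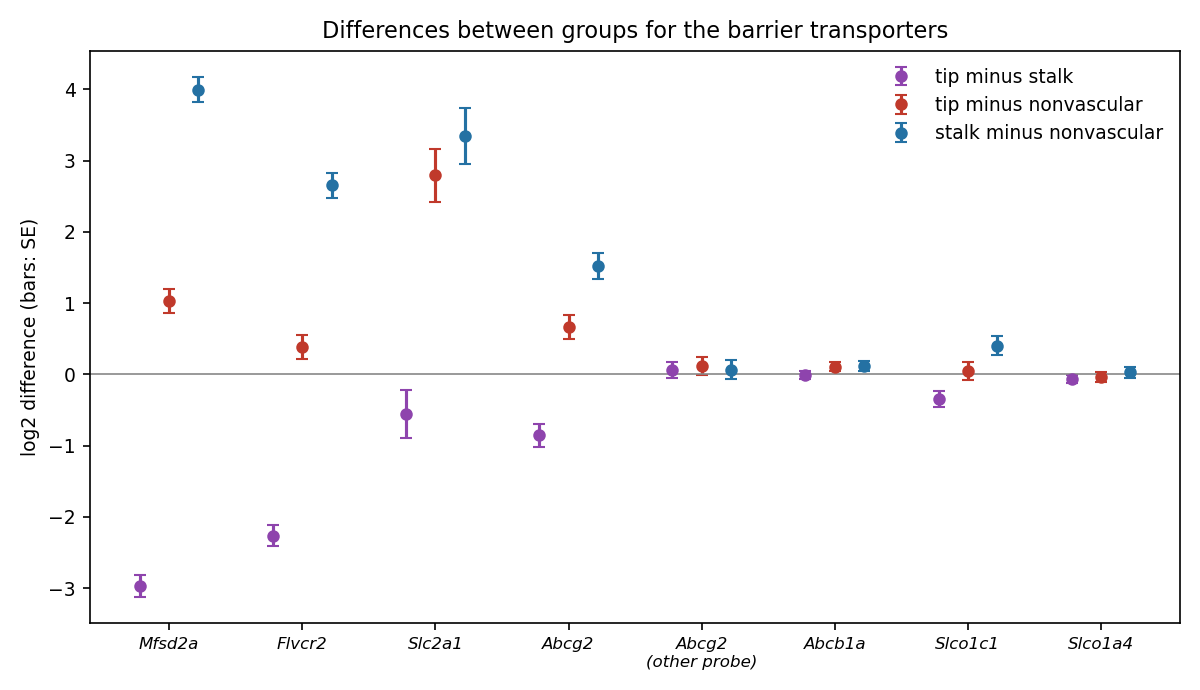
Log2 differences between groups (vertical axis) for the 8 probes, with bars of 1 SE from limma. Each probe has, from left to right, tip against stalk (purple), tip against nonvascular retina (red) and stalk against nonvascular retina (blue). Tip minus stalk is lowest for Mfsd2a at −2.97, and the dimmer Abcg2 probe, Abcb1a and Slco1a4 lie near 0 in all 3.

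The genes most like each member were found by Pearson's r over the 13 arrays among 14972 genes, as a description in which the groups set most of the variation. For Mfsd2a they were Lsr, which encodes a tricellular junction protein (r = 0.981), Art3 (0.968) and Shroom1 (0.967). For Flvcr2 they were Ceacam2 (0.988), the monoamine oxidase gene Maoa (0.987) and Art3 again (0.971). Slc2a1 was most like Zfp36l1, an RNA-binding protein gene (0.995), Mfge8, a secreted glycoprotein gene (0.994), and Tmem37 (0.990). Over the tip and stalk arrays alone these 3 had r of 0.893, 0.877 and 0.803.

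Abcg2 was most like Itm2a (r = 0.974), the apolipoprotein gene Apod (0.967) and the endothelial surface gene Ly6c1 (0.959). Over the 22 alternatives that gave such an r, the lowest was 0.920 for Itm2a, 0.591 for Apod and 0.931 for Ly6c1. Slco1c1 was most like Ifit3, an interferon-induced gene (0.915), Odf3b (0.905) and Proser2 (0.879). Without stalk replicate 3, r was 0.754 for Ifit3 and 0.635 for Proser2. For the dim Abcb1a the closest were Rbm28 (0.861), Ube2f (0.858) and Zfp131 (0.855), and for Slco1a4 they included the olfactory receptor genes Olfr987 (0.913) and Olfr918 (0.889). With median centring the 3 values for Abcb1a were 0.276, −0.0528 and −0.221. For Slco1a4 the lowest r over the 22 alternatives was 0.562 with Olfr987 and 0.489 with Olfr918.

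Other transporters and receptors of barrier endothelium, taken from a list of 33 genes of which 31 could be tested, were divided. The list was written with earlier results of these data known, so its counts and p-values are not free of that choice. In tip against stalk, 8 were lower and 2 higher, and the rest did not pass the test. Slc38a5 was among the rest (log2 difference −1.33 ± 0.43, SE, limma adjusted p = 0.13), with a nonvascular SD of 1.62 that its SE takes in. So was Abcc1 (0.36 ± 0.11, adjusted p = 0.112). For both, named after their values were seen, tip and stalk arrays did not overlap. Over all genes, 1.32% were called lower and 1.46% higher, so that 52.6% of the calls were higher in tip. That share was 19.5% with median centring, 30.4% in the red channel on its own, 33.9% with array brightness in the model and 95.5% relative to the pan-endothelial markers. The list's median difference was −0.071. The pericyte markers, 8 of 12 of them lower in tip with a median of −0.75, moved in the direction of the 8 lower transporters, and their part in these was not tested. The zinc and manganese importer Slc39a8 differed most among the genes called by limma's test (log2 difference −1.67 ± 0.16, SE, adjusted p = 0.000139). It ran from 0.92 to 1.70 on tip arrays, against 2.90 to 3.23 on stalk arrays. The call was kept under all 26 alternatives, with differences of −1.96 to −0.84. The other Slc39a8 probe was dimmer and was not among the probes tested.

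The iron exporter Slc40a1 (ferroportin) was lower in tip (log2 difference −1.36 ± 0.18, limma adjusted p = 0.002) and spanned 0.58 to 1.14 on tip arrays, against 1.88 to 2.49 on stalk arrays. Both chains of the large neutral amino acid transporter were lower, Slc7a5 (−0.83 ± 0.14, adjusted p = 0.00657) and Slc3a2 (−0.75 ± 0.091, adjusted p = 0.000964). The taurine carrier Slc6a6 was lower as well (−1.13 ± 0.16, adjusted p = 0.00639), in a fit that lacked 1 tip, 1 stalk and 1 nonvascular array because their spots were marked as outliers. Its other probe gave 0.14, and with the mean of both probes the call was lost (−0.23, adjusted p = 0.804, range over alternatives 0.000867 to 0.804).

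The monocarboxylate carrier family gene Slc16a4 (−0.64 ± 0.11, adjusted p = 0.00882), the nucleoside carrier Slc29a1 (−0.46 ± 0.064, adjusted p = 0.00237) and the organic anion carrier Slco2b1 (−0.75 ± 0.15, adjusted p = 0.0189) were lower too. Their tip and stalk arrays did not overlap. Slco2b1 lost its call in 6 of 26 alternatives (adjusted p 0.0044 to 0.192), Slc29a1 in 1 (0.00183 to 0.126) and Slc7a5 in 1 (0.00194 to 0.0764). The other probes of Slc3a2 and Slc16a4 differed by −0.10 and −0.094, which did not pass the test. The genes called higher in tip, named after their values were seen, were the cationic amino acid carrier Slc7a3 (0.65 ± 0.15, adjusted p = 0.0365) and the fatty acid carrier Slc27a1 (0.40 ± 0.090, adjusted p = 0.0362), and for both the tip and stalk arrays overlapped. With median centring, and with array brightness in the model, 6 were called lower and 0 higher. Relative to the pan-endothelial markers 9 were called lower and 5 higher, and the list's median turned to 0.14.

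Against nonvascular retina, 14 of these 31 genes were higher in tip and 3 lower, and in stalk 13 were higher and 5 lower. Over all genes, 11.2% were called higher in tip and 16.8% lower, and in stalk 11.3% and 18.6%. Slc39a8 was higher by 1.95 ± 0.17 in tip (SE, limma adjusted p = 2.37e-06) and by 3.62 ± 0.19 in stalk (adjusted p = 2.78e-08). Slc29a1 was higher by 1.38 ± 0.070 in tip (adjusted p = 2.81e-08) and by 1.84 ± 0.076 in stalk (adjusted p = 4.9e-09). Slc40a1 was called in stalk (1.61 ± 0.22, adjusted p = 8.09e-05). The vitamin carrier Slc5a6 was lower in tip (log2 difference −0.49 ± 0.071, adjusted p = 0.000151), a call lost with the red channel alone (adjusted p = 0.202, the range over alternatives being 8.16e-05 to 0.202). The glutamine carrier Slc38a3 was higher in tip by 1.17 ± 0.17 (adjusted p = 0.000169).

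**Figure D3:**
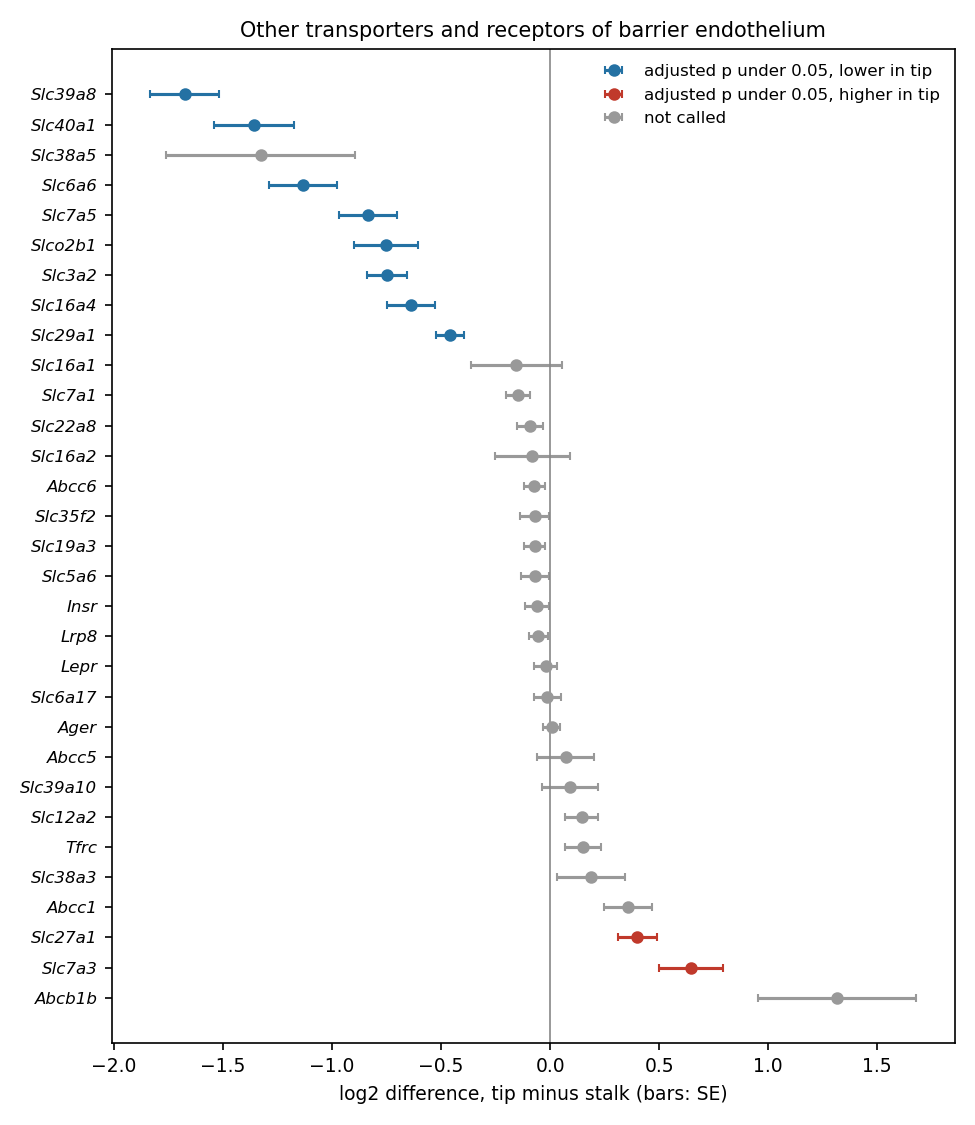
Log2 difference of tip minus stalk (horizontal axis, bars of 1 SE) for the 31 other transporters and receptors of barrier endothelium, sorted from the lowest at the top. Blue genes (8) were called lower in tip, red genes (2) higher, and grey genes were not called. Slc39a8 stands at −1.67 and Slc7a3 at 0.65.

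Among 18 tested relatives of the members, from a list of 22, 1 was lower in tip than in stalk and 0 were higher, the lower one being Slco2b1. The count was 0 with the scanner software's log ratios and with median centring. Against nonvascular retina, 6 were higher and 5 lower in tip, and 4 higher and 6 lower in stalk. The shares of all genes called higher and lower were 11.2% and 16.8% in tip, and 11.3% and 18.6% in stalk. The neuronal glucose transporter Slc2a3 went the opposite way to Slc2a1. It averaged 0.085 in tip, −0.073 in stalk and 1.44 in nonvascular retina, and was lower than in nonvascular retina in tip (log2 difference −1.36 ± 0.17, SE, limma adjusted p = 3.98e-05) and in stalk (−1.51 ± 0.18, adjusted p = 2.9e-05).

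The Abcb1a relatives Abcb1b and Abcb4, a phospholipid pump, were higher in tip than in nonvascular retina by their brightest probes, by 2.47 ± 0.40 (SE, limma adjusted p = 0.000364) and 2.28 ± 0.27 (adjusted p = 3.05e-05). For Abcb1b this probe gave 1.32 ± 0.36 for tip minus stalk (adjusted p = 0.0765). The gene's other probes gave 0.25 and −0.085 for tip minus stalk (limma adjusted p = 0.129 and 0.457 over probes). Other Abcb1b probes gave 0.46 (limma adjusted p = 0.0013 over probes) and 0.15 (adjusted p = 0.0823) for tip minus nonvascular retina, and the other Abcb4 probe gave 0.0096 (adjusted p = 0.942). The sterol exporters of the Abcg2 family differed in direction against nonvascular retina. Abcg1 was higher in tip by 1.03 ± 0.087 (adjusted p = 1.5e-06) and in stalk by 0.96 ± 0.094 (adjusted p = 5.4e-06), and Abcg4 was lower in tip (−1.11 ± 0.11, adjusted p = 6.43e-06) and in stalk (−1.26 ± 0.12, adjusted p = 4.12e-06).

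Of 6 genes of caveolae and of the diaphragm of fenestrated vessels, whose vesicles Mfsd2a is known to hold in check, all 6 were higher than in nonvascular retina in tip and in stalk. The share of all genes called higher was 11.2% in tip and 11.3% in stalk. Between tip and stalk 1 of the 6 was lower, Cavin2 (log2 difference −1.10 ± 0.24, SE, limma adjusted p = 0.0339), and 0 were higher. The list's count of called genes fell to 0 in 10 of 26 alternatives and rose to 3 in 1. Cavin2 itself was not followed over the alternatives. Cav1 differed by −0.12 ± 0.14 (adjusted p = 0.713) and the diaphragm gene Plvap by −0.31 ± 0.17 (adjusted p = 0.358).

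Cell type markers were not equal between tip and stalk. Of 17 pan-endothelial markers, 1 was higher in tip (Vwf, 1.00 on the log2 scale) and 2 were lower (Fli1, −1.14, and Egfl7, −0.41), with a median of −0.30. The number called was 1 with median centring, 1 with array brightness in the model, 5 without tip replicate 6 and 2 to 4 without any other single array. Measured relative to these markers, which moved the median of all genes to 0.21, tip minus stalk was −2.76 for Mfsd2a, −2.05 for Flvcr2, −0.34 for Slc2a1, −0.64 for Abcg2 and −0.14 for Slco1c1, while Abcb1a and Slco1a4 changed sign, to 0.21 and 0.15.

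The pericyte markers called between tip and stalk by limma's test were 8 of 12, all lower in tip, and the count was 4 with median centring, 4 with the replicate block and 2 with array brightness in the model. All 12 were well above background in red on every tip and stalk array. The astrocyte list mean was 1.52 to 1.75 on tip arrays and 1.56 to 1.79 on stalk arrays, with 0 of 8 markers called. The Mueller glia list mean was 1.73 to 2.03 on tip arrays and 1.95 to 2.10 on stalk arrays, and 1 of 8 was lower, the glutamine synthetase gene Glul (−0.99).

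**Figure D4:**
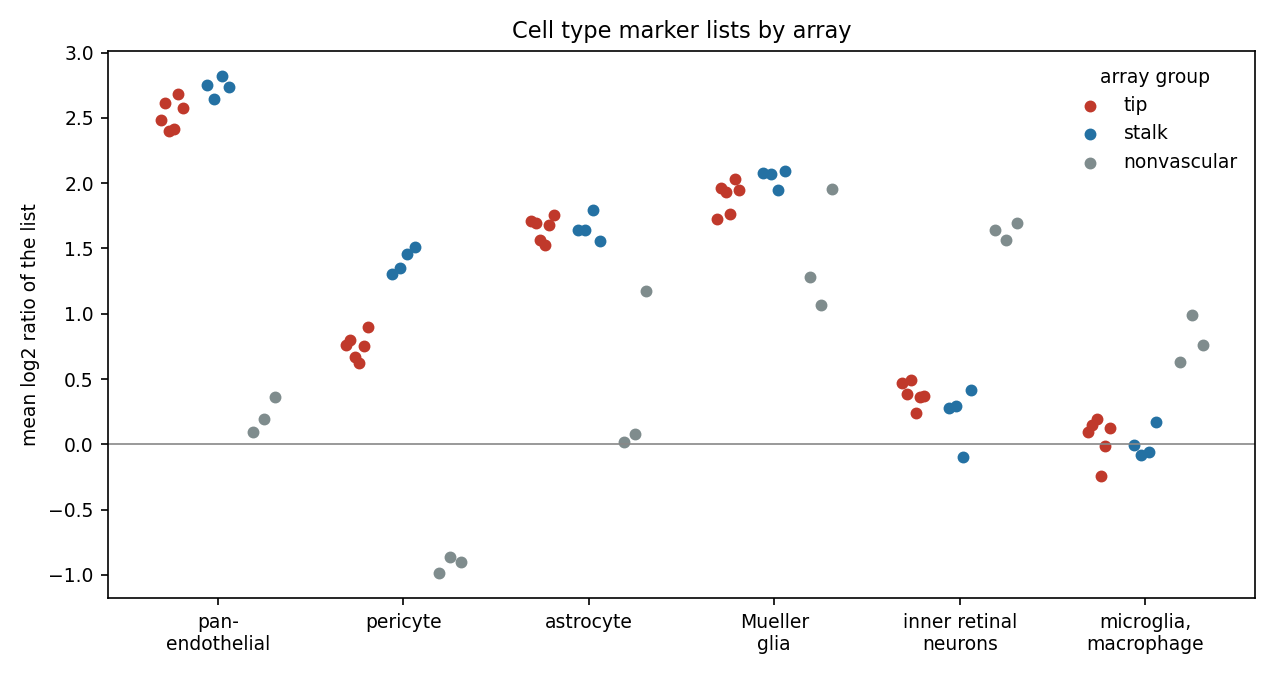
Mean log2 ratio of 6 cell type marker lists (vertical axis) on each array, shown as points for tip (red), stalk (blue) and nonvascular retina (grey). The pericyte means of the tip arrays, 0.62 to 0.90, lie below those of the stalk arrays, 1.30 to 1.51, and 1 nonvascular array stands at 1.18 on the astrocyte list.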

How the data were processed

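RNA of 6 tip, 4 stalk and 3 nonvascular retina samples was hybridised in Cy5 with a Cy3 reference RNA, without dye swap, per the labels. It was extracted with the Arcturus PicoPure kit and labelled after low-input linear amplification, per the labels' protocols. Per the file headers, Agilent Feature Extraction 8.5.1.1 gave each spot's mean intensity and local background intensity per channel, not normalized, with flags of other kinds, and a log10 ratio of processed red over green. The deposited ratio table equalled the antilog of that log10 ratio within 0.001 for at least 99.94% of probes.

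Background was corrected with normexp (offset 50) and arrays normalized by loess in limma 3.58.1 (R 4.3.3; data.table, version 1.17.8), with control spots at weight 0 and outlier spots missing. Repeated spots were averaged, the brightest probe was used for each gene, and a gene was tested if it was well above background in red on at least 3 of 13 arrays. Limma fitted 3 group means to all arrays, and p-values were adjusted by Benjamini-Hochberg over 31897 genes, with calls at an adjusted p under 0.05. The limma fit for tip minus stalk was tested on simulated gene values, and the other steps were not. The number of arrays limits the precision.

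Of 41174 probes, 22072 were named by their own RefSeq accession (GRCm38.p6), 135 by another accession, 1323 by their description, and 17644 kept the file's name. The members and lists were chosen with earlier results of these data known. Named genes are all members, up to 8 called genes per list and comparison by smallest p, the 3 genes most like each member, and markers that move with a result; 1 gene among those most like a member is not reported here. A block for slide could not be run, because each slide held 1 array, and leaving out tip replicate 5 stands for the scan day. Alternatives covered the array values used, background, normalization, red channel alone, probe summary, filters, brightness, samples in the fit, replicate block, single arrays left out and scaling on endothelial markers. The offset of 0 was chosen after seeing the data.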

Additional observations from a re-analysis of the deposited data

Results flagged for a closer look

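In 5 of 71 groups of values examined (members, named transporters and marker lists in tip and in stalk), 1 array stood far from the rest of its group, where chance gives about 1 in 20. The dimmer Abcg2 probe was at −0.51 on stalk replicate 2, against −0.56 to −0.55 on the other stalk arrays, a small gap in absolute terms. Slc3a2, a chain of the amino acid transporter, was at 2.26 on stalk replicate 2, against 2.05 to 2.07 on the others. Slc2a3, the neuronal glucose transporter, was at −0.40 on tip replicate 5, against 0.068 to 0.28 on the others. The iron exporter Slc40a1 was at 1.14 on tip replicate 6, against 0.58 to 0.75. The mean of the Mueller glia markers was 1.95 on stalk replicate 3, against 2.07 to 2.10. The causes were not tested.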

How the results depend on the processing

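The median tip minus stalk difference of the 7 members (−0.55) was −0.68 with the scanner software's log ratios and with the deposited ratios, −0.80 with median centring, −0.66 with array brightness in the model, −0.40 with all probes of a gene averaged and −0.34 relative to the pan-endothelial markers. It ran from −0.58 to −0.52 with 1 array left out. All 7 members were lower in tip than in stalk under 17 of the 26 alternatives. Not all of these could change the sign. Leaving out a nonvascular array, changing the filter on dim probes or fitting only tip and stalk left the members' differences as they were. The deposited ratios repeat the scanner software's log ratios. The count of other barrier transporters called for tip minus stalk (10) was 6 with median centring, 6 with brightness in the model, 14 relative to the pan-endothelial markers (9 lower, 5 higher) and 8 to 11 with 1 array left out. Counts of called members were 2 to 4 for tip and 4 to 5 for stalk against nonvascular retina. Slco1a4 changed sign without being called: tip minus nonvascular retina was 0.067 with median centring and 0.18 with the red channel alone, and stalk minus nonvascular retina ran from −0.032 (without stalk replicate 3) to 0.066 with 1 array left out. The causes were not tested. Over all genes, 887 were called for tip minus stalk, against 251 with median centring, 224 with brightness in the model, 5436 relative to endothelial markers, 444 and 464 without stalk replicates 1 and 3, 525 and 543 without tip replicates 2 and 3, and 1594 without tip replicate 6. The labels do not tie samples to animals, so replicate numbers are not known to pair them. Numbers in the labels' source names recur across groups without an explanation, and no block for animal was fitted. Same-numbered samples deviated from their group means together with correlations of −0.14 to 0.082. With so few arrays per group, these values neither show nor exclude a pairing. With the replicate number as a block, the members' median for tip minus stalk was −0.53, 10 other transporters were called, 3 and 4 members were called in tip and stalk against nonvascular retina, and Slco1c1 in stalk lost its call (adjusted p = 0.0769). Dim signals limit what Abcb1a, Slco1c1 and Slco1a4 can show: with an offset of 0 in place of 50, tip minus stalk was −0.15, −0.55 and −0.22.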
